A study of Mus musculus with 8 samples.

Results

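Aminoacyl-tRNA synthetases join each amino acid to its transfer RNA, the step that gives the ribosome its substrates. The genes described here are the 20 cytosolic and 16 mitochondrial synthetase genes on a list of 36 names, picked out by gene symbol from the 49492 genes of the count table, and all 36 were present. The libraries came from CD8+ T cells isolated with anti-CD8a beads from subcutaneous tumours of the mouse melanoma line B16, on day 14, in mice described as female. The 4 control libraries carried the genotype PLPP1fl/fl, in which Plpp1, the gene for a phosphatase that acts on phosphatidic acid and related lipids, is flanked by loxP sites. The 4 knockout libraries carried Lckcre-PLPP1fl/fl, the same floxed alleles with a Cre recombinase driven by the T-lineage promoter of Lck. The labels give no age, and they do not say that the libraries are separate animals, so p-values here describe the spread among the libraries, part of which may be technical.

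Cells keep separate sets of synthetases for the cytosol and for the mitochondrial matrix, both encoded in the nucleus, and mitochondrial forms carry a name ending in 2. The enzymes fall into classes I and II by the fold of their catalytic domain. In mammalian cells several cytosolic synthetases sit together in a multi-tRNA synthetase complex held by scaffold proteins. Many cytosolic synthetase genes are known targets of ATF4, the transcription factor of the amino acid response, which binds C/EBP-ATF response elements, and activated T cells are known to raise their capacity for protein synthesis.

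The control libraries held 49856353 to 61999941 counts each and the knockout libraries 44118131 to 57716522. Counts assigned to Plpp1 were low in both groups, at 61, 50, 35 and 62 in control replicates 1 to 4 and at 18, 32, 29 and 19 in knockout replicates 1 to 4. The log2 fold change of Plpp1 was -0.84 (SE 0.26, edgeR quasi-likelihood test, adjusted p = 0.0064), and the groups overlapped. Its exons share bases with another gene, which leaves the origin of the remaining knockout counts unresolved. The Y-linked gene Ddx3y stood at 78.4 ± 3.1 CPM (counts scaled to an equal library total; SD, n = 4) in knockouts and 0.0703 ± 0.043 in controls, and Xist at 51.1 ± 4.4 and 747 ± 27 CPM, against the description of the mice as female. Presence of Y-linked RNA thus follows genotype in all 8 libraries, and an effect of sex and an effect of genotype cannot be told apart in any comparison below. The 10 T cell markers examined were present in all libraries and summed to 2301 to 2369 CPM in controls and 1742 to 1936 CPM in knockouts, with 9 of the 10 lower and 1 higher. The 7 melanoma markers summed to 17.9 to 19.4 CPM in controls and 5.3 to 6.56 CPM in knockouts, with Mlana, Tyr and Tyrp1 at 0 counts throughout. Most of that sum was Pmel, at 16.9 CPM in controls and 4.32 CPM in knockouts, a gene that shares exonic bases with another, while Mitf had a log2 fold change of -0.10 (edgeR adjusted p = 0.54). The 10 macrophage markers summed to 4.26 to 4.53 and 3.27 to 3.99 CPM, with Csf1r called higher (0.65, edgeR adjusted p = 0.0017) and Itgam lower (-2.01, edgeR adjusted p = 1.0e-08). In the same order of groups, the 5 B cell markers summed to 4.76 to 6.19 and 2.9 to 3.58 CPM, and the 4 neutrophil markers to 0.409 to 0.844 and 0.0872 to 0.277 CPM. The 3 red cell markers summed to 4.55 to 5.24 and 9.03 to 10.6 CPM. Hba-a1 and Hbb-bs were called higher, while Alas2 was not called (log2 fold change -0.53, edgeR adjusted p = 0.14). The 4 natural killer markers summed to 23 to 28.1 CPM in controls and 42.6 to 47.8 CPM in knockouts, mostly Eomes, which CD8+ T cells also express. Klrb1c was also called higher (log2 fold change 1.72, edgeR adjusted p = 4.1e-06), at 0.488 CPM in controls and 1.64 CPM in knockouts. Ncr1 and Klra8 were not called (log2 fold changes -0.54 and 1.12, edgeR adjusted p = 0.28 and 0.13). The 3 endothelial markers summed to 99.1 to 111.4 CPM in controls and 24.8 to 30.1 CPM in knockouts, nearly all Pecam1. The other 2 were near 0 and did not pass the filter on low counts. Cdh5 averaged 0 CPM in controls and 0.0109 CPM in knockouts, and Kdr 0.0683 and 0.112 CPM. The fall in this sum is therefore that of Pecam1 alone. The 3 CD4 T cell markers summed to 14.91 to 16.45 CPM in controls and 13.5 to 14.91 CPM in knockouts, with 1 called lower. The 4 dendritic cell markers summed to 0.714 to 1.211 and 1.003 to 1.198 CPM, and the groups overlapped. So did those of the 5 fibroblast markers, at 0.194 to 0.365 and 0.262 to 0.522 CPM. The sums of the other lists moved with genotype, and the part of any list in the results below was not tested.

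Most synthetase genes were higher in the knockout libraries. All 36 passed the filter on low counts. Of the 20 cytosolic genes 15 rose, 2 fell and 3 did not pass the test, and of the 16 mitochondrial genes 9 rose, 0 fell and 7 did not pass (edgeR quasi-likelihood test over all 17940 tested genes, Benjamini-Hochberg adjusted p under 0.05). Across all tested genes 64.3% were called, 32.8% higher and 31.6% lower, so the share of members called in either direction is close to this background, while their division between rises and falls is not: 24 rose and 2 fell. At an unadjusted p under 0.05 the mitochondrial genes gave 1 fall by edgeR, and after adjustment DESeq2 and limma-voom also called 0 falls. The median log2 fold change was 0.47 over the cytosolic genes and 0.33 over the mitochondrial genes, beside -0.01 over all tested genes. In size these shifts were moderate: the median absolute log2 fold change over all tested genes was 0.39, and 8 of the 36 members were both called and past 1.5-fold, beside 29.7% of all tested genes.

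**Figure D1:**
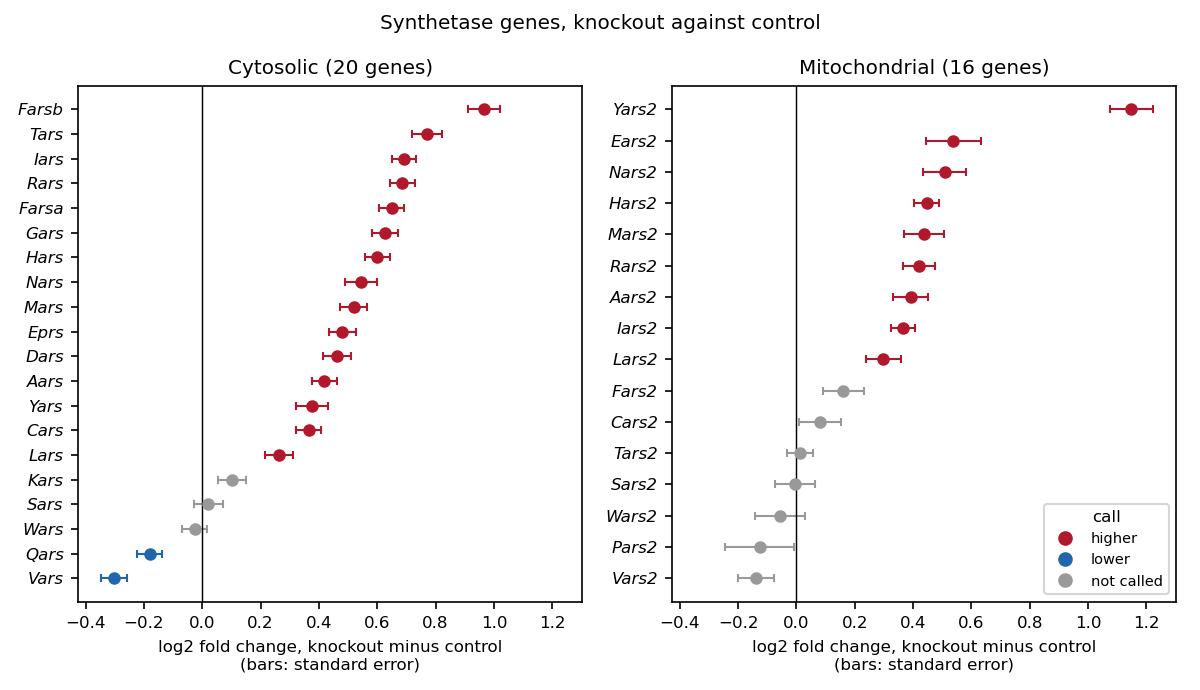
Log2 fold change of each synthetase gene, knockout minus control, with its standard error, for the 20 cytosolic genes (left) and the 16 mitochondrial genes (right). Colours give the call of edgeR at an adjusted p under 0.05: 15 and 9 genes were higher, 2 and 0 lower, and 3 and 7 not called.

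Summed over the family, the change was of like size in every library of a group. The cytosolic genes summed to 5173, 5026, 4880 and 5107 CPM in control replicates 1 to 4 and to 6710, 6630, 6570 and 6375 CPM in knockout replicates 1 to 4. The knockout mean was 130.2% of the control mean. The mitochondrial genes summed to 382, 393, 392 and 398 CPM in controls and to 490, 478, 488 and 485 CPM in knockouts, or 124% of the control mean. The groups did not overlap in either sum. In bulk RNA a change in the number of cells of a type and a change in RNA per cell cannot be told apart.

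**Figure D2:**
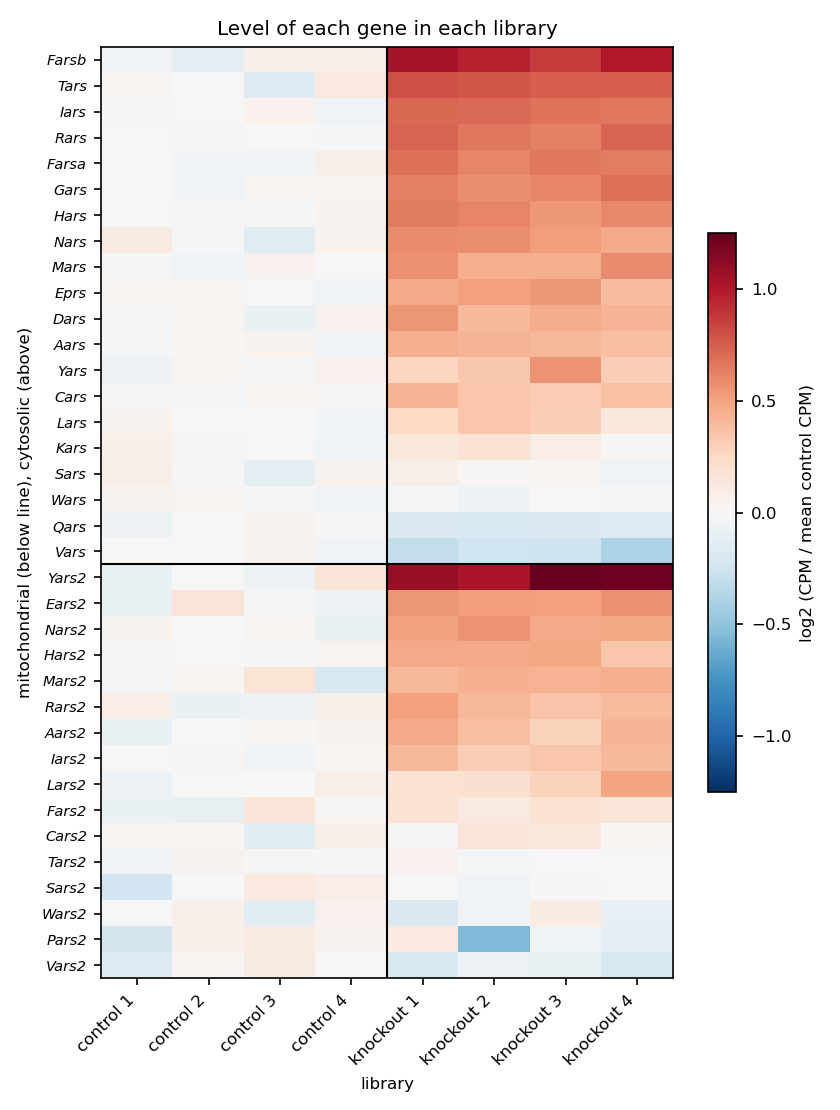
Level of each of the 36 genes in each of the 8 libraries, as log2 of CPM over the control mean of that gene; the cytosolic genes stand above the horizontal line, and rows are ordered by fold change within each compartment. The 24 called rises are red in all 4 knockout libraries, and Qars and Vars are blue in all 4.

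Among cytosolic enzymes the largest rise was in Farsb, the beta subunit of phenylalanyl-tRNA synthetase, on chromosome 1 (78417975 to 78488897, minus strand, GRCm38). It stood at 17.3, 16.5, 18.7 and 18.7 CPM in control replicates 1 to 4 and at 36.3, 34.6, 32.6 and 35.7 CPM in knockout replicates 1 to 4, with a log2 fold change of 0.97 (SE 0.056, edgeR adjusted p = 5.4e-13). All knockout libraries were above all controls. Farsa, the alpha subunit that completes this enzyme, rose by 0.65 (SE 0.043, edgeR adjusted p = 5.5e-12), from 98.5 ± 3.7 to 154.5 ± 3.5 CPM (SD, n = 4). Farsb shares 248 exonic bases with Sgpp2 on the opposite strand, a gene at 0.323 CPM, so few of its counts can come from there.

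Tars, the threonyl-tRNA synthetase gene on chromosome 15 (11383663 to 11399658, minus strand), stood at 394, 383, 346 and 419 CPM in controls and at 676, 659, 648 and 647 CPM in knockouts. Its log2 fold change was 0.77 (SE 0.052, edgeR adjusted p = 8.2e-12), and the knockout values were tightly grouped well above the highest control. Iars, for isoleucine, on chromosome 13 (49682100 to 49734267, plus strand), stood at 111.5, 112.7, 117.5 and 109.8 CPM in controls and at 185.8, 184.2, 180.9 and 178.5 CPM in knockouts, a log2 fold change of 0.69 (SE 0.042, edgeR adjusted p = 1.2e-12). Rars, for arginine, rose by 0.69 on the log2 scale (SE 0.042, edgeR adjusted p = 1.5e-12), from 128.8 ± 1.2 to 207.2 ± 6.7 CPM (SD, n = 4). With Farsb, these were the 4 cytosolic genes that passed a test against a 1.5-fold change (edgeR glmTreat, adjusted p = 0.0014 for Tars, 0.013 for Iars, 0.019 for Rars and 8.5e-07 for Farsb), a test that 17.5% of all tested genes passed.

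Gars encodes the glycyl enzyme of both compartments from 1 gene, on chromosome 6 (55038007 to 55079500, plus strand). It rose by 0.63 on the log2 scale (SE 0.044, edgeR adjusted p = 1.4e-11), from 263.3 ± 6.2 to 406.4 ± 12.3 CPM (SD, n = 4). Kars, for lysine, likewise serves both compartments, and it stood at 382.7 ± 12.6 CPM in controls and at 410.6 ± 20.5 CPM in knockouts (SD, n = 4; log2 fold change 0.10, SE 0.047, edgeR adjusted p = 0.063). Its groups overlapped, since control replicate 1 was at 399.8 CPM and knockout replicate 4 at 385.8. Kars was called higher, like Gars, under 4 other settings: with the replicate block, among genes without exonic overlap, without control replicate 1 and without knockout replicate 4 (edgeR adjusted p from 0.012 to 0.049).

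The remaining cytosolic rises were smaller. Hars and Nars, for histidine and asparagine, rose by 0.60 (SE 0.043) and 0.54 (SE 0.054) on the log2 scale. Nars, the member with the highest level per length, stood at 848, 774, 705 and 811 CPM in controls and 1185, 1174, 1127 and 1089 CPM in knockouts. Mars, Eprs and Dars, for methionine, for glutamate with proline, and for aspartate, rose by 0.52, 0.48 and 0.46. Mars shares 68 exonic bases with the opposite-strand gene Ddit3, itself at 40.4 CPM, and how such bases were counted is not stated. Aars also shares 1326 exonic bases with the same-strand gene Exosc6, at 21.2 CPM. Aars, Yars, Cars and Lars, for alanine, tyrosine, cysteine and leucine, rose by 0.42, 0.38, 0.36 and 0.26 (edgeR adjusted p from 1.2e-08 for Aars to 4.6e-05 for Lars). In all of these the knockout libraries lay wholly above the controls, a pattern that 30.1% of all tested genes showed.

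The cytosolic genes that did not rise were the valine, glutamine, serine and tryptophan enzymes, with Kars. Vars stood at 179.4, 180.6, 186.2 and 174.8 CPM in controls and at 145.4, 152.1, 150.4 and 137 CPM in knockouts, and fell by 0.30 on the log2 scale (SE 0.045, edgeR adjusted p = 3.0e-06). Qars stood at 184.1, 193, 197.9 and 193.6 CPM in controls and at 169.2, 168.8, 169.6 and 170.2 CPM in knockouts, and fell by 0.18 (SE 0.042, edgeR adjusted p = 6.1e-04). All knockout libraries were below all controls for both genes, as for 28.2% of all tested genes. Sars, the member with the most counts in controls, stood at 854.3 ± 47.3 CPM in controls and at 866.5 ± 27.6 CPM in knockouts (SD, n = 4; edgeR adjusted p = 0.73). Wars, for tryptophan, a gene known to be induced by interferon gamma, stood at 81.3 ± 2.6 and 79.9 ± 1.4 CPM (SD, n = 4; edgeR adjusted p = 0.60).

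Promoter sequences are shown for 4 risen genes whose promoter holds the core of the C/EBP-ATF response element. They had the largest fold changes among such genes with a window searched here. The windows run from 250 bases before to 50 bases after the start of transcription (RefSeq, GRCm38.p6) and are written on the gene's own strand: chr15:11399609-11399908 for Tars, chr13:49681880-49682179 for Iars, chr6:55037751-55038050 for Gars and chr8:111033592-111033891 for Aars, minus strand for Tars and plus strand for the others. Capitals mark matches to TGATGNAA, which here all lie on the opposite strand and so read as its reverse complement.
Tars: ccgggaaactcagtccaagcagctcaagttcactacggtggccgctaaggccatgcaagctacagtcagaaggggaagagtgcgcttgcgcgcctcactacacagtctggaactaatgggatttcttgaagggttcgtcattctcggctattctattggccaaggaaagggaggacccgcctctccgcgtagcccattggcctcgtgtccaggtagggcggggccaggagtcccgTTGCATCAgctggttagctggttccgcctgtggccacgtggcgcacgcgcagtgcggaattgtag
Iars: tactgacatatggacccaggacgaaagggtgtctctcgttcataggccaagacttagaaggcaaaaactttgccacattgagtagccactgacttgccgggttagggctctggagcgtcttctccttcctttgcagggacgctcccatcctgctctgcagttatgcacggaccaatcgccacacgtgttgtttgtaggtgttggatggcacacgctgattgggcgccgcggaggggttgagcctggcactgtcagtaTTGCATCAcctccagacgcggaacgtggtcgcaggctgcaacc
Gars: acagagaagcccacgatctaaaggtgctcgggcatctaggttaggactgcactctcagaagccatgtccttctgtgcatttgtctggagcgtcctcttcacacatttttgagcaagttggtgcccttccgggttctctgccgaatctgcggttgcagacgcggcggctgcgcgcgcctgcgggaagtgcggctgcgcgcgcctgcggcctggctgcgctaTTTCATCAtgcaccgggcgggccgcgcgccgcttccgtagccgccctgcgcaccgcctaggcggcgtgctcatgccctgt
Aars: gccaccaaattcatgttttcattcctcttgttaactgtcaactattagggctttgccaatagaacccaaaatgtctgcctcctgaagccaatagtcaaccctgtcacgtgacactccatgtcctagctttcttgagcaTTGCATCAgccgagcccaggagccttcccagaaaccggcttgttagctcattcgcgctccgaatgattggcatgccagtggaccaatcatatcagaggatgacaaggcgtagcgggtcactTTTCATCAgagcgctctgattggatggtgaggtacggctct

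In Tars the match began 15 bases before the start, in Gars 30 bases before it, and in Iars at base 8 after it. Aars held 2 matches, 112 bases before the start and at base 10 after it. Promoter windows were searched for 13 cytosolic and 14 mitochondrial members, Mars under the symbol Mars1. Windows of the members on chromosome 18 (Hars, Lars, Nars and Hars2) were not used here. No window was found for Cars, Rars, Vars, Wars and Pars2. Either strand held TGATGNAA in 5 of the 13 cytosolic windows, those of Tars, Iars, Gars, Aars and Yars, and in 0 of the 14 mitochondrial genes, beside 4.51% of the 27025 genes in the table (3.97% of its 32851 windows, as a gene can have several). The 5 genes with a match had log2 fold changes of 0.38 to 0.77 (median 0.63), and the 8 cytosolic genes without one had -0.18 to 0.97 (median 0.47), so the ranges overlapped. The E-box CACGTG, a palindrome bound by MYC with MAX, was present in 4 of the 13 cytosolic windows (Aars, Farsb, Iars and Tars) and in 1 of 14 mitochondrial genes (Ears2), beside 8.09% of all genes and 7.15% of all windows. It shared no bases with a TGATGNAA match in these windows. Such matches describe the letters and do not show binding.

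Of the mitochondrial enzymes, Yars2, for tyrosine, on chromosome 16 (16302965 to 16309640, plus strand), rose the most of all 36 genes. It stood at 6.86, 7.29, 6.98 and 8.12 CPM in controls and at 15.6, 14.8, 17.5 and 17 CPM in knockouts, a log2 fold change of 1.15 (SE 0.075, edgeR adjusted p = 4.3e-12). The lowest knockout was well above the highest control, and Yars2 was the 1 mitochondrial gene to pass the test against 1.5-fold (edgeR glmTreat, adjusted p = 1.8e-07). Ears2 and Nars2, for glutamate and asparagine, rose by 0.54 (SE 0.095, edgeR adjusted p = 3.0e-05) and 0.51 (SE 0.075, edgeR adjusted p = 2.7e-06) from low levels. Ears2 stood at 3.54, 4.24, 3.73 and 3.62 CPM in controls and at 5.53, 5.43, 5.39 and 5.63 CPM in knockouts, with 89 exonic bases shared with the opposite-strand gene Ubfd1, at 27.5 CPM. Nars2 shares 284 exonic bases with the opposite-strand gene C230038L03Rik, at 3.46 CPM. Whether reads of these neighbours add to the counts of Ears2 and Nars2 was not tested.

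Hars2, Mars2, Rars2, Aars2, Iars2 and Lars2 rose by 0.45, 0.44, 0.42, 0.39, 0.37 and 0.30 on the log2 scale (edgeR adjusted p from 4.4e-09 for Hars2 to 1.7e-04 for Lars2). Their knockout libraries lay wholly above the controls. Mutations of LARS2 and HARS2 in humans are known causes of Perrault syndrome, with hearing loss and ovarian failure. Iars2 shares 2034 exonic bases, 22.9% of its length, with the opposite-strand gene Rab3gap2 at 29.1 CPM. The value of Iars2 is therefore uncertain, by an amount that was not measured. Hars2 shares 195 exonic bases with its opposite-strand neighbour Hars, and whether the counting told reads of the pair apart in those bases is not stated.

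The other 7 mitochondrial genes did not pass the test. Fars2, for phenylalanine, stood at 10.2 ± 0.81 CPM in controls and at 11.3 ± 0.30 CPM in knockouts (SD, n = 4; edgeR adjusted p = 0.051). Vars2, for valine, stood at 22.1 ± 1.7 and 20.1 ± 0.93 CPM (SD, n = 4; edgeR adjusted p = 0.055). Both lay next to the threshold. Fars2 was called higher under 3 other settings (limma-voom, genes without exonic overlap and without control replicate 3; adjusted p from 0.017 to 0.042), and Vars2 was called lower under 7 (edgeR adjusted p from 0.011 to 0.045). Cars2, Pars2, Sars2, Tars2 and Wars2 had log2 fold changes from -0.13 to 0.08 (edgeR adjusted p from 0.33 to 0.96) and overlapped between groups. Cars2 shares 422 exonic bases with the opposite-strand gene Naxd, at 58.9 CPM, so its value is uncertain. Pars2, for proline, varied the most among the 36 genes, with a coefficient of variation of 18.5% in knockouts, where replicate 2 was at 3.64 CPM and the others at 4.9 to 5.78.

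To compare compartments for 1 amino acid at a time, each of the 16 mitochondrial genes was paired with its cytosolic counterpart, Eprs serving for both glutamate and proline. The log2 ratio of their counts within a library needs no scaling between libraries. The ratio was higher in all 4 knockouts than in all 4 controls for 7 pairs, lower for 2, and overlapped for 7. How often ratios of other gene pairs part in this way was not computed. Of single tested genes, 58.3% had knockout libraries wholly above or below the controls. For Tars over Tars2 the ratio was 3.14, 3.02, 2.90 and 3.22 in control replicates 1 to 4 and 3.83, 3.87, 3.81 and 3.81 in knockout replicates 1 to 4, a difference of 0.76 on the log2 scale. The knockout ratios were all above the controls, as the cytosolic gene rose and the log2 fold change of Tars2 was 0.01. For Yars over Yars2 the ratio was 3.66, 3.68, 3.70 and 3.54 in controls and 2.82, 2.97, 2.96 and 2.74 in knockouts, a difference of -0.78, the opposite direction. Both genes rose there, the mitochondrial one more.

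The other pairs with a higher ratio in knockouts were Eprs over Pars2 (a difference of 0.62), Farsa over Fars2 (0.49), Iars over Iars2 (0.33), Cars over Cars2 (0.28), Rars over Rars2 (0.26) and Hars over Hars2 (0.15). The other with a lower ratio was Vars over Vars2 (-0.17). Each of these 9 pairs reached p = 0.0286 in an exact two-sided permutation test over the 8 libraries, the smallest p that 4 against 4 can give, and the adjusted p over the 16 pairs was 0.0508, so no pair passed 0.05 after adjustment. The ratios of Eprs over Ears2, Lars over Lars2, Mars over Mars2, Nars over Nars2, Aars over Aars2, Sars over Sars2 and Wars over Wars2 differed by -0.06 to 0.08 between genotypes (exact permutation p from 0.343 to 0.886). Among the pairs without overlap, the ratio thus did not move in 1 direction across amino acids.

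**Figure D3:**
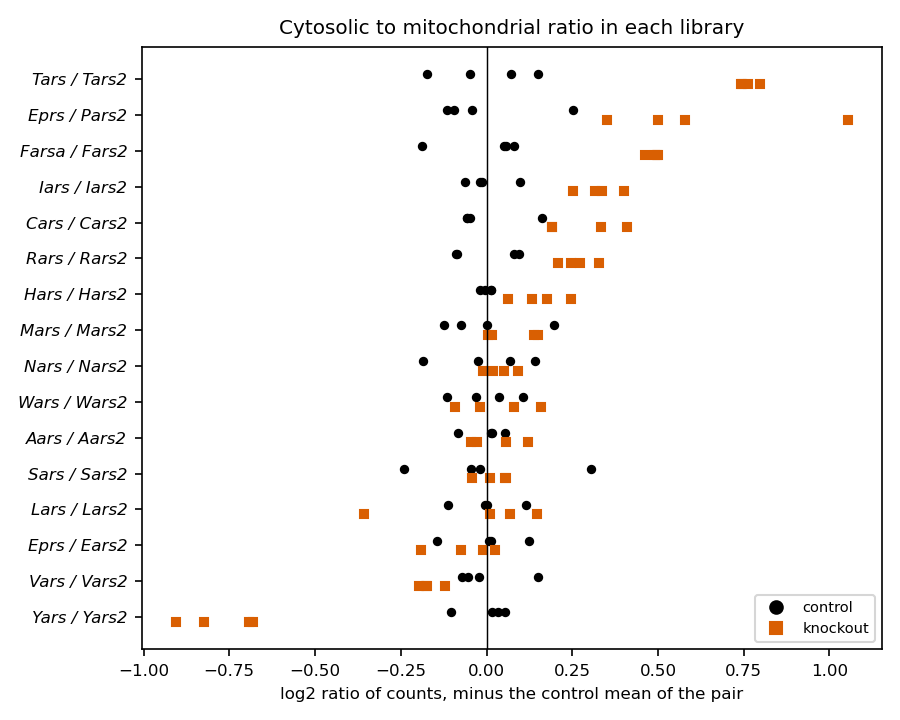
Log2 ratio of cytosolic to mitochondrial counts for each of the 16 pairs in each library, minus the control mean of the pair; circles are controls and squares knockouts. The knockout libraries lie to the right of all controls in 7 pairs, led by Tars over Tars2, and to the left in 2, Vars over Vars2 and Yars over Yars2.

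Levels per length spanned a wide range. In TPM, a measure of transcripts per length scaled to an equal total, computed from the counts and the exonic length in the table, Nars led the cytosolic genes at 725.5 ± 42.2 in controls (SD, n = 4), before Sars at 404.6 ± 14.6 and Tars at 356.1 ± 23.2. The next, Kars at 208.9 ± 6.4, Gars at 205.7 ± 6.8 and Hars at 195.7 ± 3.9, overlapped their neighbours in that order, as did the run from Vars at 78.4 through Dars and Qars to Aars at 68.8 and the run from Eprs at 60.7 through Wars, Cars, Farsa and Iars to Mars at 47.9. Farsb was lowest, at 16.6 ± 1.1 TPM, beside 52.9 ± 1.7 for Farsa, the other subunit of the same enzyme. In knockouts Tars, at 607.4 ± 15.4 TPM, stood above Sars at 410.4 ± 17.3. Of the mitochondrial genes Hars2 led at 52.6 ± 1.1 TPM in controls and Ears2 was lowest at 1.79 ± 0.17 (SD, n = 4). Between them the controls of Rars2 and Iars2 overlapped, as did the runs from Sars2 through Fars2 and Aars2 to Vars2 and from Wars2 through Mars2 to Nars2, and the pair of Pars2 and Cars2. The lengths join all annotated exons of a gene, up to 18102 bases for Eprs, so genes with long retained introns in the annotation have their TPM understated.

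**Figure D4:**
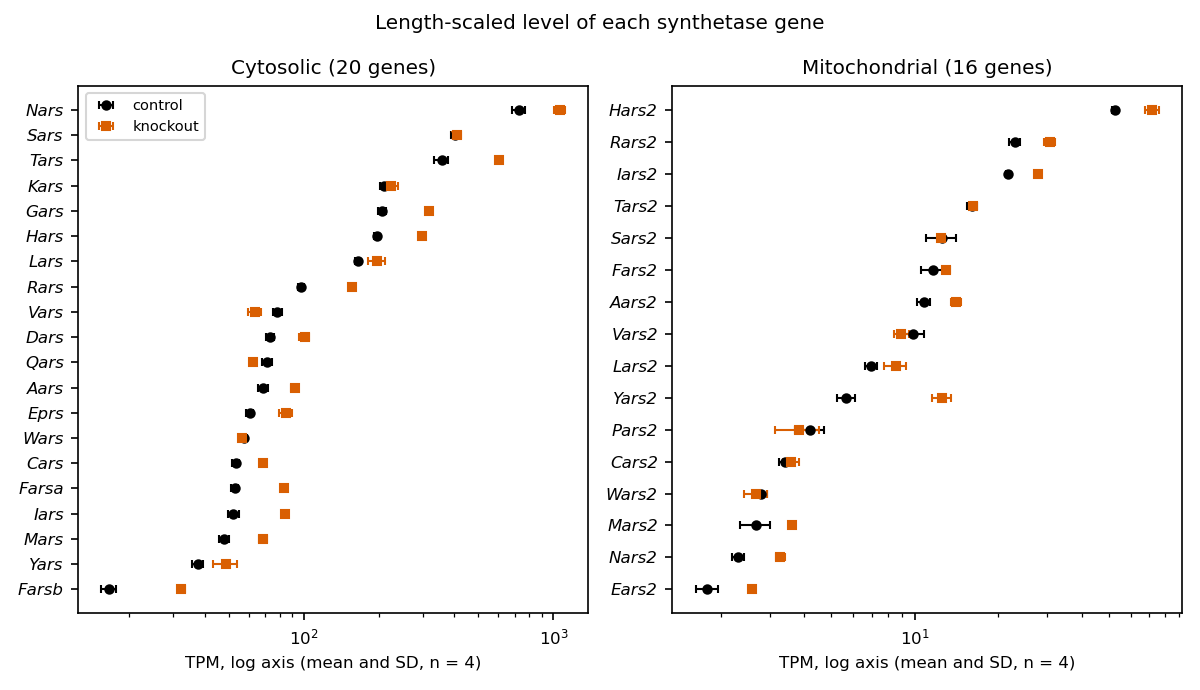
Mean TPM of each gene in controls (circles) and knockouts (squares) on a log axis, with SD over 4 libraries, ordered by the control level within each compartment. Cytosolic genes run in controls from 16.6 TPM for Farsb to 725.5 for Nars, and mitochondrial genes from 1.79 for Ears2 to 52.6 for Hars2.

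Grouped by structure, the 8 cytosolic enzymes of the multi-tRNA synthetase complex and the 12 outside it had like medians, 0.47 and 0.48 on the log2 scale. In the complex 6 genes rose and 1 fell, and outside it 9 rose and 1 fell. Of the 18 class I genes 12 rose and 2 fell (median 0.37), and of the 17 class II genes 11 rose and 0 fell (median 0.45). Eprs, which holds both classes, was counted in neither. The cytosolic medians were 0.36 for class I and 0.57 for class II, and the mitochondrial medians 0.37 and 0.16. No test was made between these groups. Of the 3 scaffold genes of the complex, Eef1e1, which encodes AIMP3 (p18), stood at 61.7, 54.6, 58.3 and 58.2 CPM in controls and 125.8, 131.6, 142.1 and 136.2 CPM in knockouts, a rise of 1.20 on the log2 scale (SE 0.049, edgeR adjusted p = 7.3e-16). Aimp2 rose by 0.95 (SE 0.063, edgeR adjusted p = 5.3e-12), from 13.95 ± 0.36 to 26.98 ± 2.36 CPM (SD, n = 4). Aimp1 stood at 100.7 ± 7.0 and 103.2 ± 6.6 CPM (SD, n = 4; edgeR adjusted p = 0.57). The log2 fold changes of the 8 enzymes ran from -0.18 to 0.69, and no test was made between scaffolds and enzymes.

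Among the 4 further genes for mitochondrial charging reported here, which are not the whole list, 3 rose and 0 fell (0 also at an unadjusted p under 0.05 by edgeR, and by DESeq2 and limma-voom). Gatb, a subunit of the amidotransferase that makes glutaminyl-tRNA in mitochondria, rose by 0.50 (SE 0.073, edgeR adjusted p = 2.7e-06), and Mtfmt, which formylates the initiator methionyl-tRNA, by 0.33 (SE 0.069, edgeR adjusted p = 2.2e-04). Qrsl1, the catalytic subunit of the same amidotransferase, rose by 0.16 (SE 0.065, edgeR adjusted p = 0.042), with groups that overlapped. The call of Qrsl1 was lost under 12 other settings (adjusted p from 0.05 to 0.15), DESeq2, library totals, no filter, halved counts, the replicate block and the omission of X and Y genes among them. Of 7 genes for tRNA editing, synthetase-like proteins and selenocysteine charging, 6 rose and 1 fell. In this list Tarsl2, a cytosolic threonyl-tRNA synthetase related to Tars, rose by 0.45, Dtd2, a deacylase that clears mischarged tRNA, by 0.40, and Sepsecs, the last enzyme of selenocysteinyl-tRNA synthesis, by 0.34. Another rise of the list, and its fall, each lost the call in 2 refits with a library left out (edgeR adjusted p from 0.084 to 0.099). Beside both lists, 32.8% of all tested genes were called higher and 31.6% lower.

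Elongation factors, the proteins that bring charged tRNA to the ribosome and move it along, were also counted. Of 6 cytosolic genes 2 rose and 2 fell, shares close to those of all tested genes (32.8% higher and 31.6% lower), and no test compared them with the synthetases. Eef1a1, which carries charged tRNA to the ribosome, fell by 0.46 (SE 0.049, edgeR adjusted p = 2.4e-08), from 3955 ± 134 to 2882 ± 121 CPM (SD, n = 4), Eef2, the translocase, fell by 0.24 (SE 0.046), and Eef1d, an exchange factor subunit, rose by 0.44 (SE 0.048). Eef2k, the kinase that inhibits Eef2, rose by 0.26 (SE 0.066), with groups that overlapped. Of these called genes, Eef1a1 and Eef2k share exonic bases with another gene. Eef1b2 and Eef1g were not called (log2 fold changes -0.06 and 0.02, edgeR adjusted p = 0.45 and 0.68). Of 4 mitochondrial elongation genes 3 rose: Gfm1, the translocase, by 0.82 (SE 0.043), Tufm, which carries charged tRNA, by 0.61 (SE 0.046), and Tsfm, its exchange factor, by 0.54 (SE 0.054). Gfm2 stood at 34.1 ± 0.77 and 32.7 ± 1.3 CPM (SD, n = 4; edgeR adjusted p = 0.28).

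Of 26 genes of the amino acid response through ATF4, 22 rose and 0 fell, with a median log2 fold change of 0.55. At an unadjusted p under 0.05, edgeR gave 1 fall, and DESeq2 and limma-voom also called 0 falls after adjustment. Across all tested genes 32.8% were called higher and 31.6% lower, and the median was -0.01. Atf4 itself stood at 243.3, 242.4, 248.9 and 248.8 CPM in controls and 515.1, 488.8, 473.8 and 559 CPM in knockouts, a log2 fold change of 1.05 (SE 0.050, edgeR adjusted p = 1.6e-14). The largest rises in the list were in Nupr1, a stress-induced chromatin protein (2.36, SE 0.085), Sesn2, an inhibitor of mTORC1 that senses leucine (1.22, SE 0.074), and Slc7a1, an arginine and lysine transporter (1.18, SE 0.049). Of these 26 genes 24 had a promoter window, and 7 held TGATGNAA, beside 4.51% of the 27025 genes with a window. Atf4 was named after its values were seen.

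**Figure D5:**
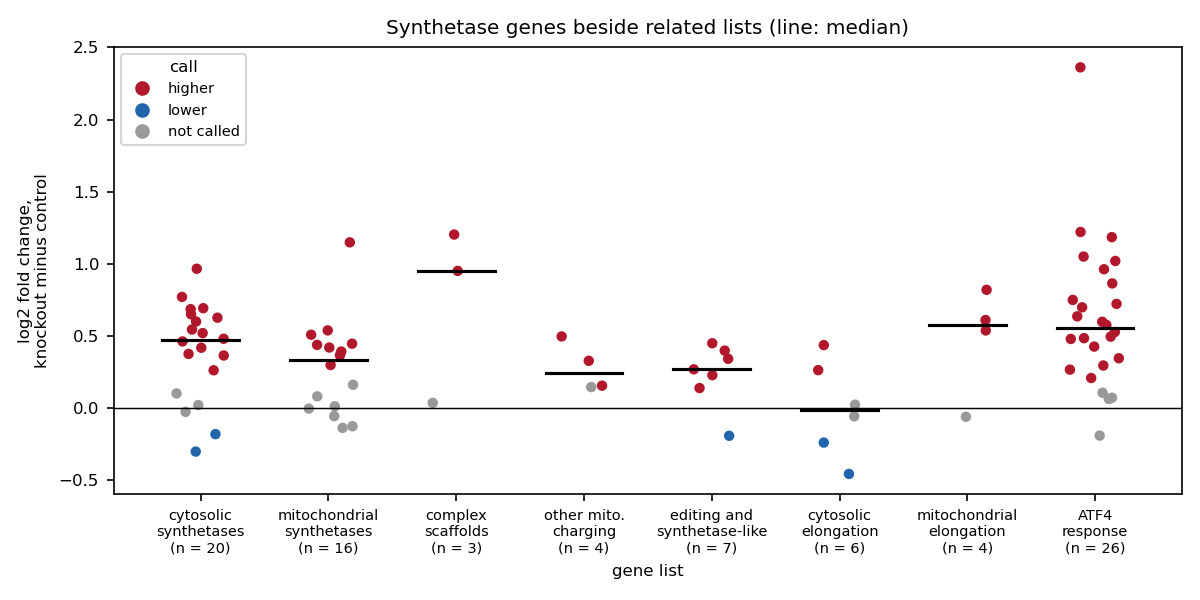
Log2 fold change, knockout minus control, of the synthetase genes and of the related lists, each point a gene, with the list's median as a line and colours for the edgeR call. The medians are 0.47 for cytosolic and 0.33 for mitochondrial synthetases, -0.02 for cytosolic elongation factors and 0.55 for the ATF4 response genes.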

How the data were processed

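Per the labels' protocols, TRIzol RNA went into a stranded mRNA kit (KC-Digital). Per the submitters' processing notes, the tools named are Trimmomatic 0.36, featureCounts and Subread 1.5.1, with the build GRCm38. The sources do not state the aligner, the annotation release or the strand setting. The authors deposited raw counts, 1 row per gene. Between 85.7% and 87.7% of values from 1 to 10 were even in each library, as when both mates of a pair are counted, so halved counts were an alternative.

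Counts were tested in edgeR 4.0.16 (R 4.3.3, limma 3.58.1) with filterByExpr, TMM scaling and the robust quasi-likelihood F test, two-sided, over 17940 genes. Standard errors were derived from F. CPM uses TMM-scaled totals. Ratios within pairs added 0.5 count to each gene. The fit was checked on simulated counts. All 36 members could be named. From each related list the 3 called genes with the largest absolute fold change could be named, others being named where a list is described in full. Members and lists were chosen with earlier results of these data known, so no list was tested as a set. Proteins were not used here, and 1 gene of a related list is not reported here. Alternatives were DESeq2 1.42.0, limma-voom, library totals, no filter, halved counts, a replicate block, a 1.5-fold test, genes without exonic overlap, no X or Y genes, and each library left out. Same-numbered libraries of the genotypes showed no pairing (correlations of their deviations 0.005 to 0.057).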

Additional observations from a re-analysis of the deposited data

Results flagged for a closer look

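Each of 76 groups of 4 libraries (36 genes and 2 sums, in 2 genotypes) was examined for a library far from the other 3, by Dixon's criterion, which chance meets in about 1 of 20 groups. It was met once. Hars2 in knockout replicate 4 stood at 117.9 CPM, below the other knockouts at 127.9 to 129.2, and above all controls, of which the highest was at 94.7 CPM.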

How the results depend on the processing

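The 26 called members kept direction and call in all 406 refits outside the 1.5-fold test. That test left 4 cytosolic and 1 mitochondrial rise, 0 cytosolic falls (0 also at an unadjusted p under 0.05, edgeR glmTreat), 1516 higher and 1629 lower genes in all, 9 ATF4 response rises, 1 mitochondrial elongation rise, and 0 calls either way in mitochondrial charging, editing and cytosolic elongation (0 unadjusted). Genes without exonic overlap, 11406 tested, gave 3693 higher and 3619 lower in all and a mitochondrial median of 0.25 (10 genes). Fewer genes of the next lists remained there: the 1 scaffold gene tested rose, and of 4 editing genes 3 rose and 1 fell. Of 3 cytosolic elongation genes 1 rose and 1 fell, and the 1 mitochondrial elongation gene tested rose. Mitochondrial falls numbered 1 (Vars2) by library totals, no filter, halved counts, the replicate block and without X and Y genes, and 0 to 1 with a library left out (1 without control replicate 1 or knockout replicate 2). Kars was called under 4 settings (adjusted p from 0.012 to 0.049, the block included), Fars2 under 3 and Vars2 under 7; besides Kars and Vars2 the block changed no member's call, and same-numbered libraries are not shown to be paired. With a library left out, the mitochondrial median ran from 0.28 (without knockout replicate 4) to 0.36, editing falls from 0 (without control replicate 4 or knockout replicate 2) to 1, mitochondrial charging rises from 2 to 4 (2 also by DESeq2, library totals, no filter, halved counts and without X and Y genes, each without Qrsl1), and ATF4 response falls from 0 to 1 (1 without control or knockout replicate 3); library totals also gave 1. Signs turned only in uncalled genes: Sars at -0.0010 by library totals and -0.018 to 0.043 with a library left out; Sars2 at 0.0059 by limma-voom, 0.015 without overlapping genes and -0.078 to 0.036 with a library left out; Tars2 at -0.010 by library totals, -0.0029 without filter, -0.0003 by halved counts and -0.0068 to 0.024 with a library left out. The cause of these shifts was not tested. Members held at least 167 counts in each library, so depth limits only the least abundant.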
